A study of Bos taurus with 60 samples.

Results

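Transcript levels of ESR1 (ENSBTAG00000007159), the estrogen receptor alpha gene, and IGF1 (ENSBTAG00000011082), the insulin-like growth factor 1 gene, were described in the endometrium of 60 beef heifers. They are 2 of the 24616 genes in the deposited table of read counts. Both were chosen by identifier, and both were read across the dietary groups, against each other and along the level of MX2 (ENSBTAG00000008471). The heifers were nulliparous and crossbred, were synchronised to oestrus and were inseminated with semen of a single sire.

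All heifers shared the same schedule and differed in supplement and plane of nutrition. For 30 days before insemination they received concentrate with either a fish-oil-based n-3 PUFA supplement, partly protected from the rumen, or a control supplement of rumen-protected palmitic acid with the same amount of lipid. For 16 days after insemination they either stayed on that high plane or were restricted to a low plane below the energy needed for maintenance, and the restricted heifers kept their lipid supplement at its earlier amount. The groups were CON_High (control supplement, high plane, n = 14), CON_Low (control supplement, low plane, n = 14), PUFA_High (n-3 PUFA supplement, high plane, n = 17) and PUFA_Low (n-3 PUFA supplement, low plane, n = 15). Endometrium was taken from the uterine horn beside the corpus luteum, and each library is 1 heifer. Each dietary group held pregnant and non-pregnant heifers, and which heifer was pregnant was not analysed here. The deposited design text counts 17 supplemented heifers as restricted and 15 as kept on the high plane, whereas the library labels, which were used here, have it the other way round. The group sizes in the methods of the study match the labels, while the tally of pregnancies there matches the design text. Each comparison was therefore repeated with PUFA_High and PUFA_Low exchanged.

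ESR1 is a nuclear receptor that binds estradiol and then acts as a transcription factor. In the uterus it drives growth of the endometrium under estrogen, and progesterone of the luteal phase lowers it. IGF1 is a secreted growth factor that signals through a receptor tyrosine kinase. Its endometrial transcript is known as an estrogen-responsive one, made mainly by stromal cells. MX2 encodes an antiviral GTPase and belongs to the interferon-stimulated genes. In ruminants these genes respond to interferon tau, the signal by which an elongating conceptus announces itself to the uterus around the time these tissues were collected.

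Libraries held 9635801 to 13943813 reads counted on genes (median 11556278), and 16269 to 16960 genes with at least 1 count. The 100 most abundant genes took 25.8% ± 3.31 (SD, n = 15) of all counts in PUFA_Low, 20.8% ± 1.91 (SD, n = 17) in PUFA_High, 22.0% ± 2.99 (SD, n = 14) in CON_High and 21.8% ± 2.15 (SD, n = 14) in CON_Low. Library codes carried 1 of 6 prefixes, JE1 to JE6, whose meaning is not stated, with 10 libraries each and every prefix present in all 4 groups.

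Both genes were read in every heifer. ESR1 had 413 to 2034 counts per library (median 1037) and IGF1 had 124 to 784 (median 273). Levels are given as CPM, the counts of a gene scaled to a common library size with TMM factors. Since transcript lengths were not analysed here, the level of ESR1 is not compared with that of IGF1.

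The ESR1 level ranged 4.03-fold over the heifers. In CON_High it was lowest at 45.9 CPM, had a median of 82.1 CPM and reached 169 CPM. In CON_Low the lowest, median and highest levels were 59.1, 84.2 and 141 CPM. In PUFA_High, the group with the highest median, they were 64.2, 97.2 and 185 CPM, and in PUFA_Low they were 46.6, 83.4 and 127 CPM. The 4 ranges overlapped over most of their length. The highest value of all belonged to PUFA_High replicate 11 and the lowest to CON_High replicate 11. The order of the group means was PUFA_High at 106 CPM ± 34.5 (SD, n = 17), CON_High at 92.1 CPM ± 37.4 (SD, n = 14), CON_Low at 90.0 CPM ± 22.0 (SD, n = 14) and PUFA_Low at 84.1 CPM ± 24.0 (SD, n = 15). Neighbours in this order, and the first and last group as well, differed by less than 1 SD between heifers.

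The IGF1 level ranged 5.65-fold. In CON_High the lowest, median and highest levels were 12.1, 30.0 and 57.5 CPM, and in CON_Low they were 14.7, 21.9 and 65.5 CPM. In PUFA_High they were 11.6, 25.2 and 63.1 CPM. The PUFA_Low heifers covered the narrowest stretch, from 12.5 CPM through a median of 23.4 CPM to 36.0 CPM. The 4 groups again overlapped and shared a similar lower end, while the upper end of PUFA_Low lay below those of the other groups. Group means were 29.6 CPM ± 14.4 (SD, n = 14) in CON_High, 29.1 CPM ± 12.8 (SD, n = 17) in PUFA_High, 27.3 CPM ± 13.7 (SD, n = 14) in CON_Low and 23.6 CPM ± 6.18 (SD, n = 15) in PUFA_Low. The lowest value of all was that of PUFA_High replicate 8 and the highest that of CON_Low replicate 2.

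**Figure D1:**
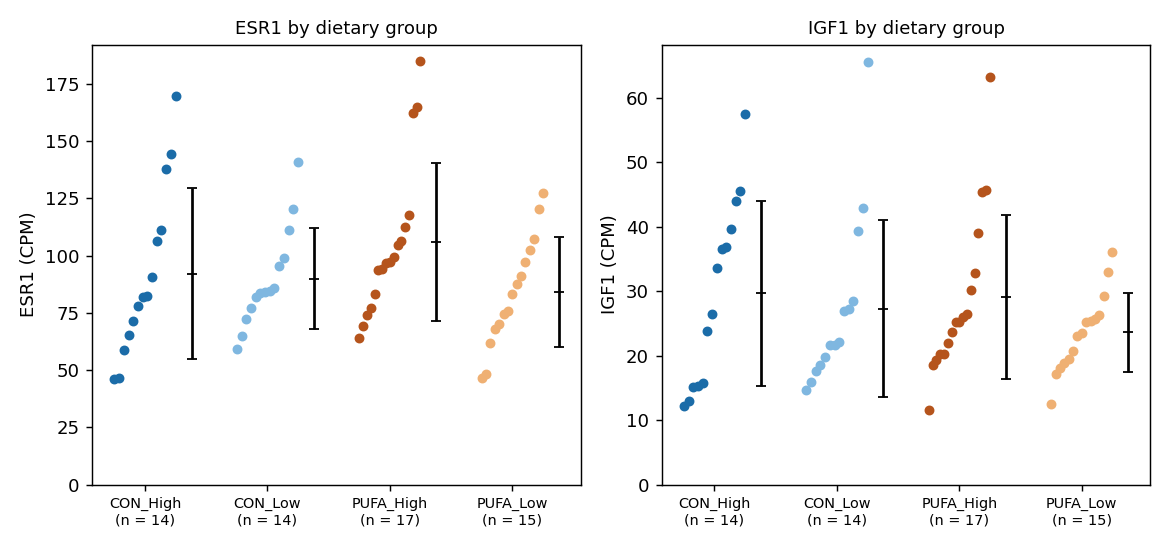
Level of ESR1 and IGF1 (CPM after TMM scaling, linear axes from 0) in each of the 60 heifers by dietary group, 1 point per heifer sorted by level, with the mean and SD beside the points. The groups overlap for both genes, and the IGF1 values of PUFA_Low end at 36.0 CPM, below the highest values of the other 3 groups.

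The spread among heifers of 1 group was far above counting error for both genes. The SD of log2 CPM within groups was 0.45 for ESR1, where counting alone would give about 0.0458, and 0.59 for IGF1, where it would give about 0.0864. The median SD of all 14363 tested genes was 0.37. IGF1 varied more between heifers of the same diet than 80.1% of tested genes, and ESR1 more than 64.5%. In bulk tissue, fewer cells of a type and less RNA per cell cannot be told apart, and this holds for every level given here. Markers of stromal, epithelial or immune cells were not analysed here, so the makeup of the pieces of tissue was not measured.

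The first question of the design was whether the supplement changed either transcript. On the high plane, ESR1 was 0.20 higher on the log2 scale in PUFA_High than in CON_High (95% interval −0.12 to 0.52, adjusted p = 0.637 by edgeR's quasi-likelihood test), and IGF1 differed by −0.03 (95% interval −0.45 to 0.39, adjusted p = 0.970 by the same test). Neither passed the threshold of an adjusted p-value under 0.10, and 0% of all tested genes did in this comparison at any fold, although the unadjusted p was under 0.05 for 1513 of them. Under restriction, ESR1 differed by −0.10 (95% interval −0.43 to 0.23, adjusted p = 0.753, edgeR) and IGF1 by −0.21 (95% interval −0.64 to 0.22, adjusted p = 0.579, edgeR), where 17.5% of tested genes passed and 2.57% did with a fold change above 1.5. Averaged over both planes the differences were 0.05 for ESR1 (adjusted p = 0.920, edgeR) and −0.12 for IGF1 (adjusted p = 0.851, edgeR), against 0% of genes.

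The second question was whether the plane of nutrition did. In control heifers the low plane differed from the high one by −0.03 for ESR1 (95% interval −0.37 to 0.30, adjusted p = 0.993, edgeR) and by −0.12 for IGF1 (95% interval −0.56 to 0.32, adjusted p = 0.966, edgeR), and 0% of tested genes passed. In n-3 PUFA heifers, where 31.3% of tested genes passed at any fold and 5.61% with a fold change above 1.5, both transcripts had their lowest log2 differences. ESR1 differed by −0.33 ± 0.158 (SE, 15 against 17 heifers), a level 0.794 times that on the high plane with a 95% interval from 0.638 to 0.988. This difference had an unadjusted p of 0.0388 and an adjusted p of 0.116 by edgeR's quasi-likelihood test, which missed the threshold. IGF1 differed by −0.30 ± 0.208 (SE), with an adjusted p of 0.298 by the same test. Of all tested genes, 26.2% differed by more than ESR1 in size and 31.2% by more than IGF1.

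The ESR1 difference of PUFA_Low from PUFA_High sat close to the threshold and moved across it with the processing. It passed with library totals alone as the scale (−0.44, adjusted p = 0.0431), with the log2 level of MX2 as a covariate (−0.39, adjusted p = 0.0269) and in a fit of the compared groups alone (−0.33, adjusted p = 0.0942). With the share of counts on the 100 most abundant genes as a covariate, a share that itself differed between these groups, ESR1 differed by −0.25 with an adjusted p of 0.666. IGF1 then differed by −0.68, with an unadjusted p of 0.00441 and an adjusted p of 0.178 (edgeR). Over all alternatives the adjusted p ran from 0.0269 to 0.666 for ESR1 and from 0.106 to 0.364 for IGF1, and with the PUFA groups exchanged the sign turned by construction. It passed in 7 of the 60 fits that left out 1 heifer, those without PUFA_High replicate 4, 8, 10 or 13 or without PUFA_Low replicate 3, 9 or 13, and values without 1 heifer ran from −0.39 to −0.26. Within prefixes the log2 difference for ESR1 was below 0 in 5 of 6, at −0.15 in JE1, 0.01 in JE2, −0.31 in JE3, −0.79 in JE4, −0.33 in JE5 and −0.52 in JE6. For IGF1 it was below 0 in 4 of 6.

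The interaction of supplement and plane was −0.30 for ESR1 (95% interval −0.76 to 0.16, adjusted p = 0.404, edgeR) and −0.18 for IGF1 (adjusted p = 0.726, edgeR), while 20.8% of tested genes passed and 8.04% did with a fold change above 1.5. The plane effect averaged over supplements was −0.18 for ESR1 (adjusted p = 0.426, edgeR) and −0.21 for IGF1 (adjusted p = 0.5005, edgeR), against 4.86% of genes, or 0.369% with a fold change above 1.5.

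Single heifers and the share of counts on the 100 most abundant genes moved the IGF1 values by more than 1.5 times, with none passing. Without CON_Low replicate 2, the heifer with the most IGF1, the supplement effect on IGF1 under restriction was −0.0357 (adjusted p = 0.930, edgeR), the interaction was −0.00376 and the plane effect in controls was −0.29. Without CON_High replicate 7 the plane effect in controls was −0.0108 and the interaction −0.29. With that share as a covariate, the supplement effect on IGF1 under restriction was −0.50 (unadjusted p = 0.0297, adjusted p = 0.986, edgeR) and the interaction −0.57. The average plane effect on IGF1 was then −0.39 (unadjusted p = 0.0133, adjusted p = 0.196, edgeR). Over the alternatives, adjusted p-values for IGF1 ran from 0.305 to 0.986 for the supplement under restriction.

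**Figure D2:**
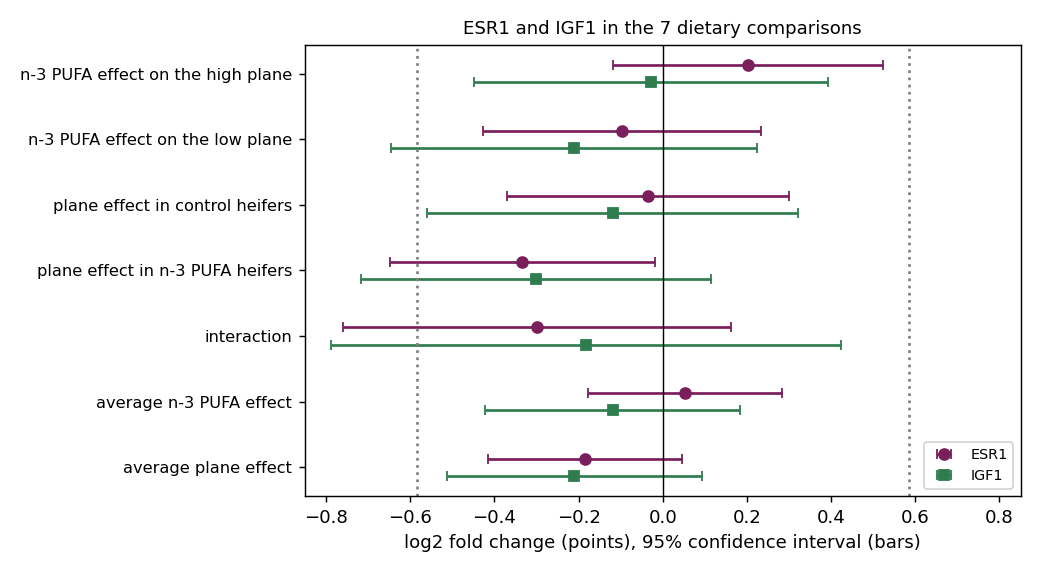
Log2 fold change of ESR1 and IGF1 in the 7 dietary comparisons, with 95% intervals from edgeR's quasi-likelihood fit, and dotted lines at a fold change of 1.5 in either direction. The interval of ESR1 for the plane effect among supplemented heifers lies below 0, and every other interval includes 0.

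Over the 7 comparisons, 0 of 14 values for the pair of genes passed in edgeR and 0 in DESeq2, where the smallest adjusted p was 0.105. In the edgeR fit of all heifers with TMM scaling and no covariate, a single value, ESR1 in PUFA_Low against PUFA_High, was under 0.05 before adjustment. The point estimate for IGF1 lay below 0 in 7 of 7 comparisons and that for ESR1 in 5 of 7. These comparisons share heifers, so their signs are not separate observations. For ESR1 the 95% interval stayed within a 1.5-fold change in both directions in 5 of 7 comparisons, and for IGF1 in 4 of 7. A change of that size was therefore outside the interval in those comparisons, whereas in the others it was not.

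MX2 stood apart from both members in the form of its distribution. Sorted by level, the heifers fell into 14 libraries with 2.81 to 18.03 CPM of MX2 and 46 libraries with 161 to 2372 CPM, separated by an empty stretch of 3.15 log2 units. The next largest step between neighbours was 0.88 log2 units. Each dietary group held heifers on both sides of the gap, with 3 below and 11 above in CON_High, 4 and 10 in CON_Low, 3 and 14 in PUFA_High and 4 and 11 in PUFA_Low. MX2 itself differed by −0.28 to 0.12 on the log2 scale in the dietary comparisons, with adjusted p-values of 0.903 to 0.990 (edgeR). Because the sides were defined from a measured level, ESR1 and IGF1 were not averaged or compared between them, and each was read along MX2 within each side. The exception was the alternative dietary fit with MX2 as a covariate, a single linear term over all libraries that spans the gap.

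Above the gap, heifers with more MX2 transcript had less ESR1. The heifers nearest to the gap were PUFA_Low replicate 2 with 161 CPM of MX2 and 97.2 CPM of ESR1, PUFA_Low replicate 1 with 167 and 107 CPM, PUFA_Low replicate 13 with 189 and 120 CPM, and CON_Low replicate 12 with 214 and 141 CPM. At the other end, CON_Low replicate 9 had 2098 CPM of MX2 and 72.2 CPM of ESR1, PUFA_Low replicate 11 had 2262 and 69.9 CPM, CON_High replicate 1 had 2272 and 58.9 CPM, and CON_High replicate 6 had 2372 and 46.7 CPM. Between these ends single heifers departed widely from the trend. PUFA_High replicate 5 had 165 CPM of ESR1 at 858 CPM of MX2, and CON_High replicate 11 had 45.9 CPM at 603 CPM.

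In a model with the dietary groups and MX2 over the 46 libraries above the gap, log2 ESR1 changed by −0.22 ± 0.0465 (SE) for each unit of log2 MX2 (95% interval −0.31 to −0.13, adjusted p = 0.000497, edgeR's quasi-likelihood test over 14362 genes). ESR1 was 0.859 times as high for each doubling of MX2. Over the whole 14.7-fold range of MX2 above the gap, this slope corresponds to a level 0.556 times as high at the top as at the bottom (95% interval 0.432 to 0.715). Of the genes tested, 14.6% passed with a slope below 0 and 15.8% with a slope above 0, so a slope that passes was common here. ESR1 ranked 698 of 14362 by p-value, and 4.68% of genes had a lower slope. The median slope of all genes was −0.01.

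The correlation of deviations from the dietary group means gave r = −0.561 and rho = −0.489 over the same 46 libraries (permutation test within groups, p = 0.00014 and p = 0.00108, adjusted p = 0.00238 and p = 0.00918 over 17 relations). Without the 2 libraries farthest from the median of MX2, r was −0.535. It was below 0 within each dietary group, at −0.648 in CON_High (n = 11), −0.550 in CON_Low (n = 10), −0.295 in PUFA_High (n = 14) and −0.706 in PUFA_Low (n = 11). In the same order, rho was −0.545, −0.297, −0.323 and −0.545. The value of r was also below 0 within each of the 5 prefixes that had at least 6 libraries above the gap, from −0.791 to −0.596, and JE4 had too few. Left out in turn, no heifer ended the call, with slopes of −0.23 to −0.19 and adjusted p-values of 9.98e-05 to 0.00349.

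**Figure D3:**
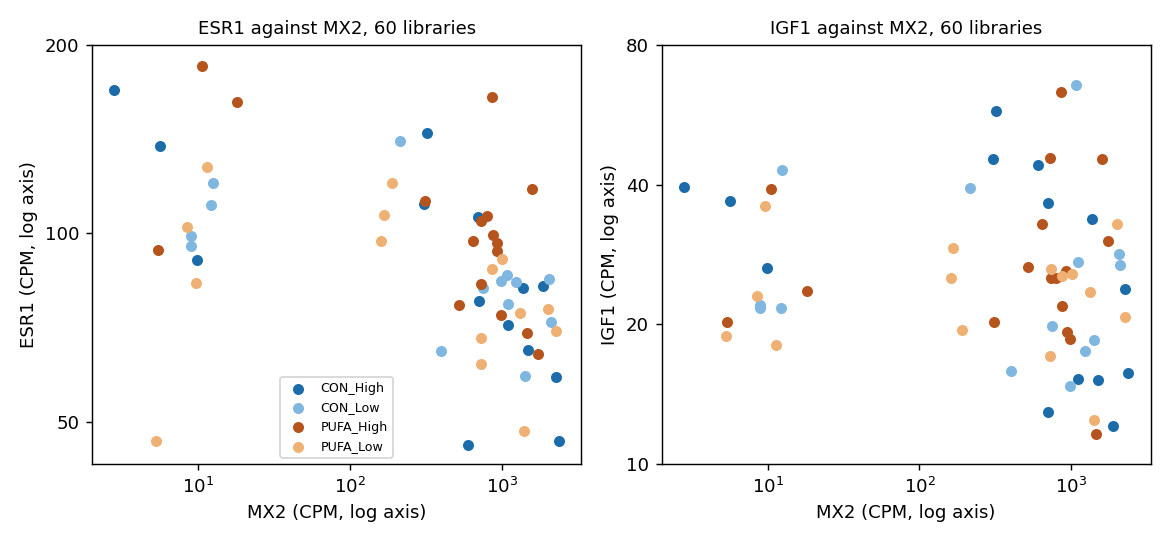
ESR1 and IGF1 level against MX2 level (CPM, both axes log) in the 60 heifers, coloured by dietary group, with an empty stretch of MX2 between 18.03 and 161 CPM. To the right of it ESR1 runs downwards with MX2 (r = −0.561), whereas IGF1 scatters widely.

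For IGF1 the same slope was −0.15 ± 0.0900 (SE, 95% interval −0.33 to 0.03, adjusted p = 0.226, edgeR), which did not pass. Over the range of MX2 it corresponds to a level 0.665 times as high, with an interval from 0.409 to 1.08 that includes both the ESR1 value and no change. Whether the slopes of ESR1 and IGF1 differ was not tested. The correlation of IGF1 with MX2 above the gap was r = −0.251 and rho = −0.243 (permutation test, p = 0.0849, adjusted p = 0.271 for r), with −0.699 in CON_High and −0.135 to 0.0166 in the other 3 groups. The 3 heifers with the most IGF1 were all above the gap, as were 46 of all 60 heifers. CON_Low replicate 2 had 65.5 CPM of IGF1 at 1073 CPM of MX2, PUFA_High replicate 5 had 63.1 CPM at 858 CPM, and CON_High replicate 7 had 57.5 CPM at 321 CPM.

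**Figure D4:**
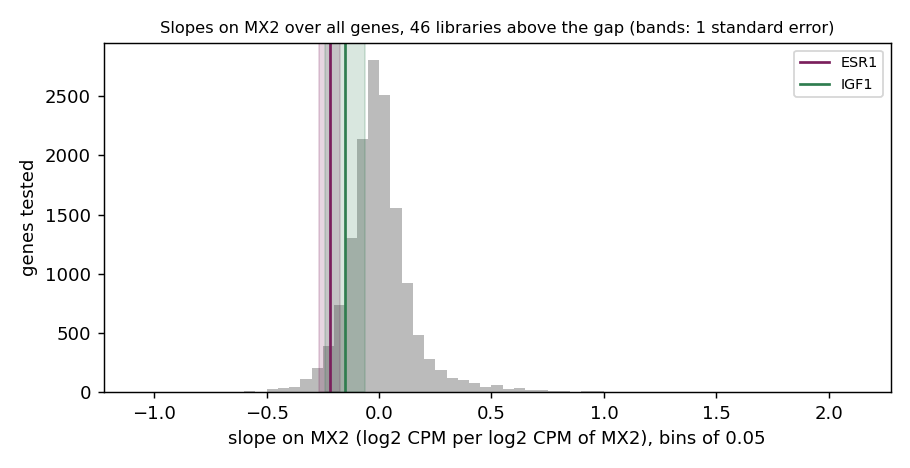
Distribution of the slopes on MX2 (log2 units per log2 unit of MX2, above the gap, n = 46) over all tested genes, with the slopes of ESR1 and IGF1 as lines and 1 SE as bands. Genes spread on both sides of 0, and ESR1 at −0.22 lies farther into the lower tail than IGF1 at −0.15.

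Below the gap, MX2 was low but counted in every library (30 to 207 counts). ESR1 there ran from 46.6 CPM (PUFA_Low replicate 10) to 185 CPM (PUFA_High replicate 11). The low end rested on that single PUFA_Low library, whose 100 most abundant genes took 30.6% of its counts. The next lowest level was 83.4 CPM, in PUFA_Low replicate 8. The slope on MX2 was 0.20 for ESR1 (95% interval −0.29 to 0.68, adjusted p = 0.696, edgeR) and 0.05 for IGF1 (95% interval −0.46 to 0.56, adjusted p = 0.929, edgeR). Here 0.0905% of genes passed with a slope below 0 and 0.202% with a slope above 0. With 14 libraries these intervals include slopes of either sign, and the slopes above and below the gap were not tested against each other.

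ESR1 and IGF1 rose and fell together among heifers of the same diet. Over all 60 heifers, the deviations of their log2 levels from the dietary group means correlated with r = 0.463 and rho = 0.468 (permutation test within groups, p = 0.00063 for r, adjusted p = 0.00536 and p = 0.0085), and r was 0.431 without the 2 libraries farthest from the median. CON_High replicate 7 had 144 CPM of ESR1 with 57.5 CPM of IGF1, and PUFA_High replicate 5 had 165 and 63.1 CPM, both genes being high in each heifer. There were exceptions, such as CON_High replicate 11, which had the lowest ESR1 level of all and 44.0 CPM of IGF1, and CON_Low replicate 2, which had the highest IGF1 level with 85.8 CPM of ESR1.

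Within dietary groups r ranged from 0.360 in PUFA_Low to 0.519 in CON_High, being 0.460 in CON_Low and 0.480 in PUFA_High. By ranks the supplemented groups lay lower, with a rho of 0.225 in PUFA_Low and 0.333 in PUFA_High, against 0.495 in CON_High and 0.521 in CON_Low. Differences between groups were not tested. Within prefixes r was above 0 in 5 of 6 and ranged from −0.103 in JE5 to 0.853 in JE3. It was 0.485 above the MX2 gap (n = 46, permutation p = 0.00159) and 0.428 below it (n = 14, permutation p = 0.172), a division chosen after the data had been seen. The p below the gap missed the threshold with fewer heifers, and the difference between the sides was not tested.

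**Figure D5:**
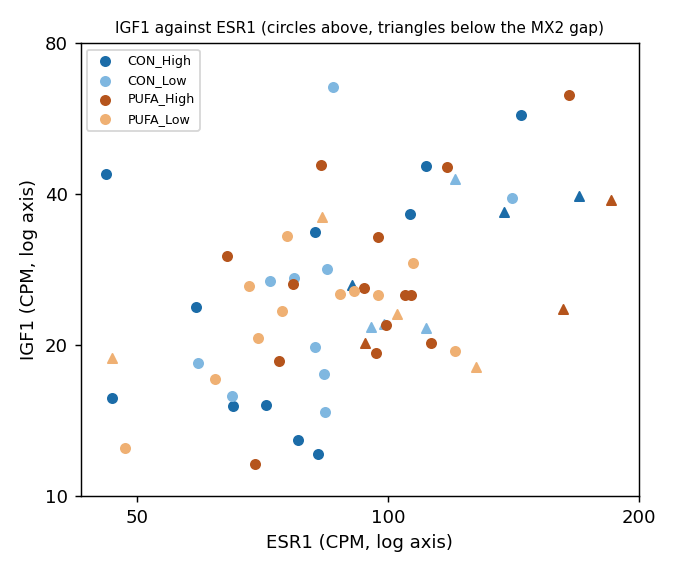
IGF1 level against ESR1 level (CPM, both axes log) in the 60 heifers, coloured by dietary group, with circles above and triangles below the MX2 gap. The points slope upwards in all 4 groups, with r of 0.360 to 0.519 within groups and a wide scatter around any line.

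The relation between the pair was moderate beside those of other genes. Ranked by r with ESR1 over 14362 genes, IGF1 stood at 844, so 5.88% of genes had an r at least as high. Ranked by r with IGF1, ESR1 stood at 506, or 3.52% of genes. The genes most like each member, chosen by the highest and lowest r over the 60 libraries, can be given by identifier alone. For ESR1 the highest were ENSBTAG00000018596 (r = 0.776) and ENSBTAG00000020050 (r = 0.769), and the lowest were ENSBTAG00000019510 (r = −0.730) and ENSBTAG00000033747 (r = −0.720). For IGF1 the highest were ENSBTAG00000020750 (r = 0.747) and ENSBTAG00000022255 (r = 0.743), and the lowest were ENSBTAG00000012041 (r = −0.665) and ENSBTAG00000008654 (r = −0.657). These are extremes out of all genes over libraries that share their scaling, and they carry no test. Each of the 8 kept its sign on both sides of the MX2 gap.

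Both genes with the highest r with ESR1 had slopes on MX2 close to that of ESR1, at −0.23 ± 0.0418 (SE, adjusted p = 4.69e-05, edgeR) for ENSBTAG00000018596 and −0.19 ± 0.0368 (SE, adjusted p = 0.000212, edgeR) for ENSBTAG00000020050. Since they were chosen for following ESR1 over the same heifers, this is a description. ENSBTAG00000019510, which ran opposite to ESR1, had a slope of 0.10 ± 0.0226 (SE, adjusted p = 0.00103, edgeR), and ENSBTAG00000033747 one of 0.05 ± 0.0334 (SE, adjusted p = 0.309, edgeR). Of the genes most like IGF1, ENSBTAG00000020750 had a slope of −0.22 (adjusted p = 0.0437, edgeR) and ENSBTAG00000022255 one of −0.22 (adjusted p = 0.0956, edgeR), while those running opposite to it had slopes of 0.04 (adjusted p = 0.374, edgeR) and 0.01 (adjusted p = 0.903, edgeR).

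Of the measures of the libraries, 1 moved with a member. IGF1 was higher in heifers whose 100 most abundant genes took a larger share of the counts (r = 0.367, permutation test within groups, p = 0.00375, adjusted p = 0.0213), and rho was 0.332 with an adjusted p of 0.0534. The value of r was above 0 within all 6 prefixes, from 0.151 to 0.666, and within the 4 dietary groups, from 0.0871 in PUFA_Low to 0.497. By ranks the prefixes were less alike, with a rho of −0.0424 in JE5 and 0.103 in JE6 to 0.588 in JE1 for the others. Without scale factors r was 0.234 (permutation test, adjusted p = 0.215), and the part of this share in the levels of IGF1 was not tested further. The other 5 relations of ESR1 or IGF1 with total count, genes detected and this share gave r of −0.287 to 0.110 and adjusted p-values of 0.194 to 0.995. The corresponding 6 relations of MX2 within the sides of its gap had adjusted p-values of 0.271 to 0.950.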

How the data were processed

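Endometrial RNA of 60 heifers was sequenced as single-end reads. Per the labels and methods, the authors used CASAVA 1.4, aligned reads with TopHat2 2.0.9 to the UMD3.1 bovine genome and counted reads on genes with HTSeq 0.5.4p5, and the deposited values are raw counts without normalization. Strand setting and treatment of reads with several positions are not given in the sources used here.

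Genes were filtered with filterByExpr of edgeR 4.0.16 (R 4.3.3), which kept 14363 of 24616, and 3947 had no count in any library. Counts were scaled by TMM, and all 4 groups entered 1 quasi-likelihood fit with a mean for each. Its 7 contrasts were the supplement within planes, the plane within supplements, the interaction of both and the 2 average effects. Benjamini-Hochberg adjustment ran over all genes of a contrast. A gene passed at an adjusted p under 0.10, and a fold change above 1.5 was used as a second call. Levels are CPM, and log2 values used a prior count of 2. Slopes on log2 MX2 were fitted in the same way with the dietary groups in the model, within the libraries on either side of any step in MX2 above 1 log2 unit that leaves at least 6 libraries, MX2 being left out of the genes tested. Relations used deviations from group means, permuted within groups 100000 times, two-sided, and adjusted over 17 relations.

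The members and the lists were chosen with earlier results of these data known. The gene names to be given were ESR1, IGF1, MX2 and, for each member, the 2 genes with the highest and the 2 with the lowest r. The count table holds identifiers alone, and the gene table used (ARS-UCD2.0, 37063 genes) paired 0 of them with a symbol. Planned lists of estrogen, progesterone and IGF pathway genes and of cell type markers were therefore not run, the labelled tissue was not checked against markers, and no sequence or position is printed. The models were also run on simulated counts with known changes, and the outcome of those runs is not given here.

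No libraries looked like repeated deposits: over 423 pairs within groups, the smallest chi-square per gene was 17.4 for genes with at least 10 counts. Replicate numbers did not pair heifers, since same-numbered libraries of different groups had a mean correlation of deviations of −0.0531 and differently numbered ones of 0.00459. Alternatives were DESeq2 1.42.0, further scale factors, a likelihood ratio test, robust estimation, stricter or looser filters and stricter thresholds. No looser threshold was used. Further alternatives were separate fits of the compared groups, blocks by prefix or replicate number, library covariates, exchanged planes and leaving out each heifer. DESeq2 for the slopes and the relation of ESR1 with IGF1 on each side of the MX2 gap were added once the data were known.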

Additional observations from a re-analysis of the deposited data

How the results depend on the processing

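Of 260 values of the dietary comparisons under alternatives, 245 kept their direction and side of the threshold, as did 23 of 24 for the slopes and 27 of 31 for the relations. The dietary values include the unchanged main fit read at stricter thresholds. These were an adjusted p under 0.05, one under 0.001, and one under 0.10 with a fold change above 1.5. Since no value had passed at 0.10, none could pass there, and those values were kept by construction. The ESR1 difference of PUFA_Low from PUFA_High passed without scale factors (−0.44), with MX2 as a covariate across its gap (−0.39) and in the fit of 2 groups alone (−0.33). Signs turned for values that had not passed: with the replicate block, IGF1 for the supplement on the high plane was 0.0747 and ESR1 for the plane in controls 0.00219, and with the share covariate the former was 0.0737. The replicate block changed no call. With PUFA_High and PUFA_Low exchanged, the supplement effect was −0.13 for ESR1 on the high plane and, under restriction, 0.24 for ESR1 and 0.0916 for IGF1. The plane effect among supplemented heifers became 0.33 and 0.30, the interaction 0.37 and 0.42, and the average plane effect 0.15 and 0.0914, for ESR1 and IGF1 in turn, so the direction of these rests on the library labels, which the group sizes in the methods of the study match. Below the gap, IGF1 on MX2 had a slope of −0.10 without dietary groups and an r of −0.149 without removal of group means, and ESR1 with IGF1 was 0.428 there. IGF1 with the share of the 100 most abundant genes was 0.234 without scale factors and 0.202 without removal of group means, and neither passed. Causes were not tested. Leaving out 1 heifer gave −0.39 to −0.26 for ESR1 in PUFA_Low against PUFA_High, −0.10 to 0.0601 for ESR1 between the planes in controls, −0.14 to 0.0808 for IGF1 by supplement on the high plane, slopes below the gap of −0.00848 to 0.53 for ESR1 and −0.12 to 0.25 for IGF1, and an r of −0.174 to 0.259 for IGF1 with MX2 there. The ESR1 slope above the gap ran from −0.23 to −0.21 over 6 alternatives (adjusted p of 9.74e-05 to 0.00131), and the r of ESR1 with IGF1 from 0.428 to 0.539 without 1 heifer. With counts of 124 or more per library, counting error was small beside the spread between libraries of 1 group. What else made up that spread was not tested.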

Other observations

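The spread of IGF1 differed in size between the groups. The coefficient of variation among heifers was 26.2% in PUFA_Low (n = 15), against 48.5% in CON_High (n = 14), 50.4% in CON_Low (n = 14) and 43.9% in PUFA_High (n = 17). On the log2 scale the SD was 0.39 in PUFA_Low and 0.58 to 0.75 in the other groups. No PUFA_Low heifer exceeded 36.0 CPM of IGF1, whereas each of the other groups reached at least 57.5 CPM. For ESR1 the coefficient of variation was 28.5% in PUFA_Low, between the 24.5% of CON_Low and the 32.5% of PUFA_High, and it was 40.6% in CON_High. A difference in spread was not tested, and it was noticed in these data.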
